A study of Homo sapiens with 6 samples.

Results

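The core spliceosome proteins form a set of 45 genes among the 30726 gene symbols in a table of polysome-associated RNA from human breast cancer cells. They were chosen by symbol: PRPF plus a number and an optional letter, SNRP, SF3A or SF3B at the start, or LSM plus a number, with pseudogenes and antisense RNAs left out. The lines, all labelled wild type, were SUM1315, a triple negative line, SKBR3, a HER2-positive luminal line, and T47D, a line of the luminal A type. Cells of each line were held at 1% oxygen for 8 hours (hypoxia) or at 21% oxygen (normoxia), and each line gave 1 library per oxygen level, 6 in all. All cells received cycloheximide, which holds ribosomes on mRNA, before polysomes were isolated on sucrose gradients. Total RNA was not analysed here, so a change in mRNA amount and a change in ribosome loading cannot be told apart.

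The spliceosome removes introns from pre-mRNA. It is built from small nuclear ribonucleoproteins (snRNPs), each a small nuclear RNA with its proteins. A ring of Sm proteins sits on the U1, U2, U4 and U5 RNAs, and a related ring of LSm proteins sits on U6. U1 marks the start of an intron and U2 its branch point, where the SF3a and SF3b subcomplexes of U2 hold the RNA. The U4/U6.U5 tri-snRNP then joins, and its rearrangement forms the catalytic core. By role, the 45 members divided into 8 Sm proteins, 7 LSm proteins of U6, 4 other LSm proteins, 5 proteins of or near U1, 11 of U2, 6 of the U4/U6.U5 tri-snRNP and 4 other PRPF proteins.

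The deposited values were read as RPKM, in which read counts are divided by transcript length and library total, so a change is a change in a gene's share of the polysome RNA sequenced. The step between low values put the depth at 21.7 to 33.4 counted fragments for each RPKM on a transcript of 1 kilobase. Defining markers matched the line labels. ERBB2 stood at 743 and 615 RPKM in hypoxic and normoxic SKBR3 cells, against 5.34 to 8.76 RPKM in the other 4 libraries, ESR1 reached 1 RPKM in T47D only, and AXL in SUM1315 only. The leukocyte and endothelial markers PTPRC, CD3E, CD14 and PECAM1 stayed under 0.146 RPKM in all 6 libraries, and the stromal collagen COL1A1 stood at 119 and 91.7 RPKM in hypoxic and normoxic SUM1315 cells. The hypoxia target DDIT4 was higher at low oxygen in every line (997, 853 and 159 RPKM in hypoxic SUM1315, SKBR3 and T47D cells, against 63.3, 76.3 and 14.3 RPKM in normoxic ones).

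Low oxygen changed 5 core spliceosome mRNAs on polysomes, in opposite directions. PRPF4 and PRPF19 fell, and PRPF6, SF3B2 and SF3B3 rose. Of 44 members tested, 3 (6.82%) rose, 2 (4.55%) fell and 39 did not pass (limma on log2(RPKM + 1) with cell line as a block, Benjamini-Hochberg adjusted p under 0.05). Over all 10253 genes tested, 6.38% were called, 4.12% higher and 2.26% lower. At these small counts, 1 member fewer in each direction would give shares near those of all genes. The median log2 fold change was -0.030 over the members and -0.0067 over all genes tested, with 21 members above 0 and 23 below, where 50.8% of all genes lay below. Members called higher fell to 0 without SKBR3 or without T47D, and members called lower to 1 without T47D. With a pseudocount of 5, only PRPF4 passed (adjusted p = 0.027), and quantile normalization kept PRPF4, PRPF19 and PRPF6. In bulk cultures a gene's share does not tell fewer expressing cells from less RNA per cell. The remaining member, PRPF40B, was under 1 RPKM in 4 of the 6 libraries and was not tested. The fit has 1 pair of libraries in each of 3 lines. Its p-values use a spread drawn more from genes of like level than from a gene's own pairs. Nothing in the labels tells how many cultures a library holds.

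The lines differed in which side of 0 the members lay. In SUM1315 14 of 44 log2 ratios were above 0 (50.6% of all tested genes) and 30 below, in SKBR3 20 were above (43.8% of all) and 24 below (56.1%), and in T47D 30 were above and 14 below (46.8%). Ratios of 0.5 or more numbered 2 in SUM1315 (8.47% of all genes), 5 in SKBR3 (8.66%) and 11 in T47D (12.3%). Ratios of -0.5 or less numbered 6 for SUM1315 (4.48%), 5 for SKBR3 (8.64%) and 5 for T47D (10.5%). Ratios were above 0 in all 3 lines for 11 members (23.5% of all genes) and below 0 in all 3 for 11 (25.2%). The member median was lowest in SUM1315 (-0.23) and highest in T47D (0.17), with SKBR3 between them (-0.030), and no test of that difference is possible with 1 pair per line.

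**Figure D1:**
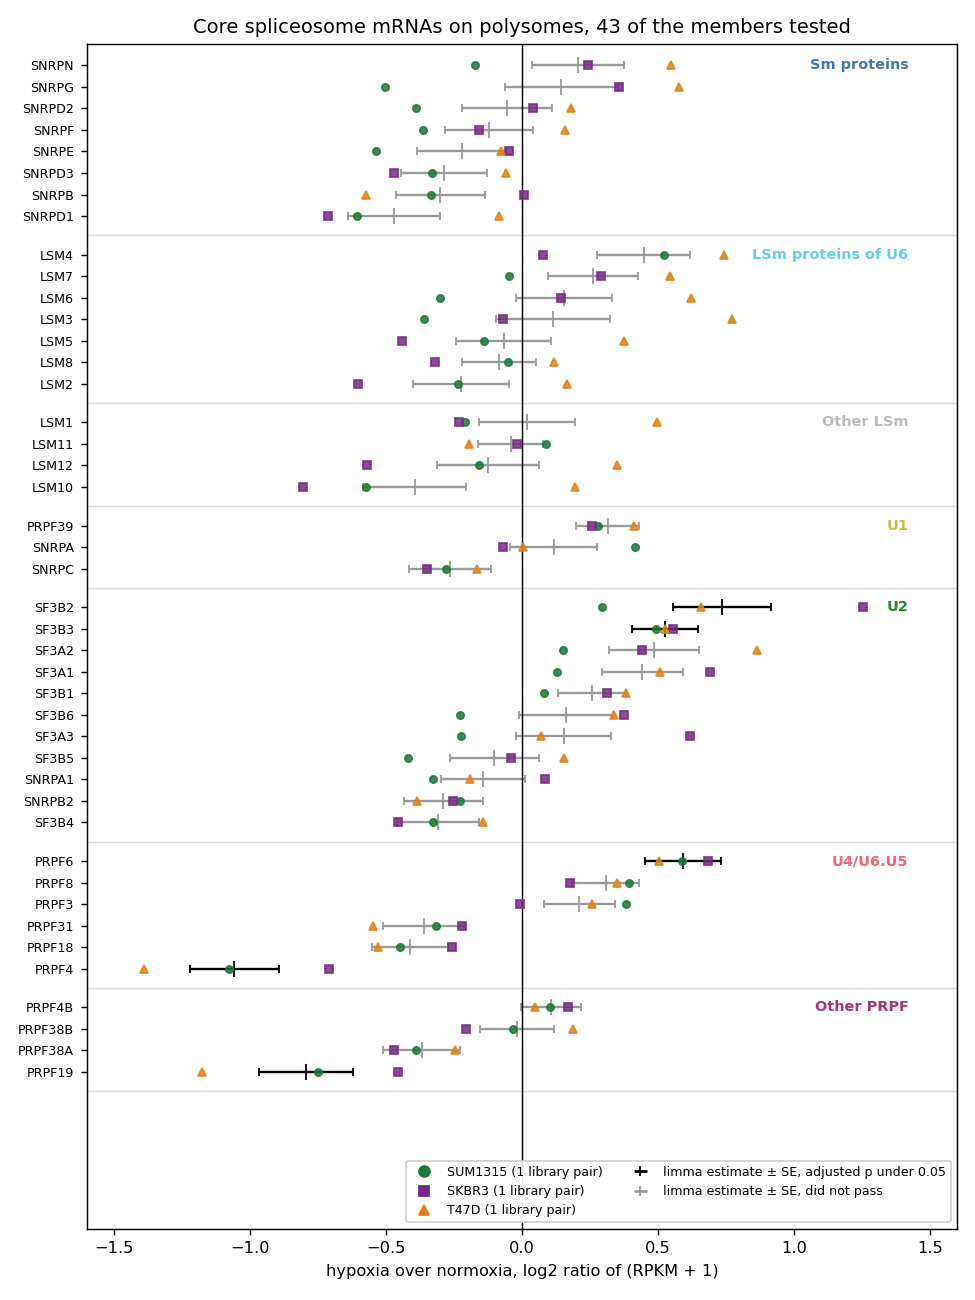
Log2 ratio of hypoxia over normoxia on the log2(RPKM + 1) scale (x axis) for 43 of the 44 members tested (y axis, by role and then by fold change), with 1 point per line and the limma estimate ± SE in black where adjusted p was under 0.05 and in grey elsewhere. PRPF4 and PRPF19 lie below 0 and SF3B2, SF3B3 and PRPF6 above 0 in all 3 lines, while Sm and LSm points of different lines often lie on opposite sides of 0.

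Promoters are shown for the members called in either direction, since these carry the result. The RefSeq promoter table (GRCh38.p14) held 37 of the 45 members, and SF3B3 is named only. Each sequence is the 250 bases before the start that RefSeq annotates, 5' to 3' on the gene's strand. Capitals mark ACGTG or GCGTG on either strand, the core letters of the element that hypoxia-inducible factors bind.
PRPF4 promoter, chr9:113275408-113275657, plus strand: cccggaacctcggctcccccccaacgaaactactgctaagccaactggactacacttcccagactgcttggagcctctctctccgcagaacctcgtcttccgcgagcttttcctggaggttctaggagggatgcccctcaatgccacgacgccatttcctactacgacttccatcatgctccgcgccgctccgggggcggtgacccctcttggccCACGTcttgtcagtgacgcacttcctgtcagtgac
PRPF19 promoter, chr11:60906586-60906835, minus strand: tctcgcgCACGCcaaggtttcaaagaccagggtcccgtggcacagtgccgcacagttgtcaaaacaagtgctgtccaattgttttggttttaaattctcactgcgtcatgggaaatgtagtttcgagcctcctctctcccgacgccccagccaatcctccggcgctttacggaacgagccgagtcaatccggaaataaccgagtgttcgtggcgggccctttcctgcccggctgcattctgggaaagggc
PRPF6 promoter, chr20:63980882-63981131, plus strand: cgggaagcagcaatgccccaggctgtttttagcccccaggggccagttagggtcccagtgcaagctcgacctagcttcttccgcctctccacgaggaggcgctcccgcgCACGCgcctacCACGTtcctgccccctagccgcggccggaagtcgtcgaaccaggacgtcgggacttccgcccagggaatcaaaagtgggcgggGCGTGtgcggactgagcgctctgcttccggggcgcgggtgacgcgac
SF3B2 promoter, chr11:66052114-66052363, plus strand: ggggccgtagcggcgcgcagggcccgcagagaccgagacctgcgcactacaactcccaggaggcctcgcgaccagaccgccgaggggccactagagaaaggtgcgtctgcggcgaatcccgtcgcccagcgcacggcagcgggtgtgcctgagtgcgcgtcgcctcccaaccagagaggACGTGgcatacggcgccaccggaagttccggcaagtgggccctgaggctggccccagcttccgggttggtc
ACGTG or GCGTG on either strand stood in 31 of the 37 member promoters (83.8%), against 59.6% of the 7960 promoters of tested genes and 43.1% of all 27305 promoters in the table. Counted apart, ACGTG stood in 10 member promoters (27.0%), near the 24.7% of tested genes. GCGTG stood in 26 (70.3%), against 47.4% of tested genes. Base composition was not compared between these sets. The letters occurred in the windows of PRPF4 and PRPF19, which fell, and of PRPF6 and SF3B2, which rose. By the GENCODE gene coordinates given further on, the windows of PRPF4 and SF3B2 lie inside the gene, since the RefSeq start lies downstream of the GENCODE one. SF3A1, SNRPC, SNRPA, SF3B4, SF3B6 and SNRPD3 had no match in this window. A match of 5 letters is a description of the sequence and not a binding site.

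Of the 6 members of the U4/U6.U5 tri-snRNP, 1 rose (against 4.12% of all genes tested) and 1 fell (2.26%). Their log2 fold changes were above 0 in 3 and below 0 in 3, where 50.8% of all genes lay below. PRPF4, a WD-repeat protein that holds the U4/U6 duplex together with PRPF3, stood at 12.6, 5.62 and 7.95 RPKM in hypoxic SUM1315, SKBR3 and T47D cells, against 27.6, 9.82 and 22.5 RPKM in normoxic cells of the same lines. It was lower at hypoxia in every line, with 45.5%, 57.2% and 35.4% of the normoxic value, though the groups overlapped because SKBR3 was low at both oxygen levels. Its log2 fold change was -1.06 ± 0.16 (SE, n = 3 lines, adjusted p = 0.0084). The PRPF4 gene lies on chromosome 9 at 113275343 to 113292905 (GRCh38, GENCODE release 29, plus strand). The call held with each line left out in turn (adjusted p 0.0011 to 0.031).

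PRPF6, which bridges U5 to U4/U6, stood at 18.8, 19.6 and 13.3 RPKM in hypoxic SUM1315, SKBR3 and T47D cells, against 12.1, 11.8 and 9.07 RPKM in normoxic ones. All 3 hypoxic libraries lay above all 3 normoxic libraries, which was true of 2.16% of the genes tested. Its mean was 17.2 ± 3.43 RPKM at hypoxia and 11.0 ± 1.68 RPKM at normoxia (SD, n = 3), and its log2 fold change was 0.59 ± 0.14 (SE, adjusted p = 0.037). The gene lies on chromosome 20 at 63981135 to 64033100 (plus strand). Without SUM1315, SKBR3 or T47D the adjusted p was 0.10, 0.070 and 0.095, so this call needed all 3 lines. The log2 fold change of PRPF6 ranged from 0.55 to 0.64 in those fits.

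The other tri-snRNP proteins did not pass, and they too lay on both sides of 0. PRPF8, the U5 scaffold of the catalytic core, had a log2 fold change of 0.31 ± 0.12 (SE, adjusted p = 0.16), with 5.66, 2.77 and 2.64 RPKM in hypoxic SUM1315, SKBR3 and T47D cells and 4.07, 2.33 and 1.86 RPKM in normoxic ones. PRPF3, the partner of PRPF4, had 0.21 ± 0.13 (SE, adjusted p = 0.33), so the pair differed in direction of estimate. PRPF31, which binds the U4 RNA, had -0.36 ± 0.15 (SE, adjusted p = 0.17). PRPF18, a factor of the second splicing step, had -0.41 ± 0.14 (SE, adjusted p = 0.10). Both were below 0 in all 3 lines, as were 25.2% of the genes tested. Exons of PRPF31 overlap those of TFPT on the other strand, and no strand setting is known from the sources used here, so its reads are uncertain.

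Proteins of the tri-snRNP and other snRNPs outside the symbol rule were listed separately. Of 21 tested, 1 rose (against 4.12% of all genes tested) and 1 fell (2.26%). Over all listed spliceosome genes outside the rule, 4 of 68 tested rose (5.88%) and 2 fell (2.94%). SNRNP200, the helicase that unwinds U4 from U6, rose by 0.64 ± 0.13 (SE, adjusted p = 0.020). It stood at 5.96, 4.51 and 2.80 RPKM in hypoxic SUM1315, SKBR3 and T47D cells, against 3.76, 2.24 and 1.47 RPKM in normoxic ones. SNRNP40, a WD-repeat protein of U5, had a log2 fold change of -0.68 ± 0.14 (SE, adjusted p = 0.024), with 32.6, 7.37 and 9.32 RPKM in hypoxic and 50.0, 12.9 and 16.1 RPKM in normoxic cells of the same lines. Neither passed when T47D was left out (adjusted p = 0.083 and 0.080), and SNRNP200 did not with the coding length correction described further on (adjusted p = 0.052). EFTUD2, the GTPase of U5, named for its role after its values were seen, had 0.30 ± 0.12 (SE, adjusted p = 0.14). Among the U5 proteins named here, PRPF6 and SNRNP200 rose, SNRNP40 fell, and PRPF8 and EFTUD2 did not pass. The calls of PRPF6, SNRNP200 and SNRNP40 did not hold with each line left out in turn.

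**Figure D2:**
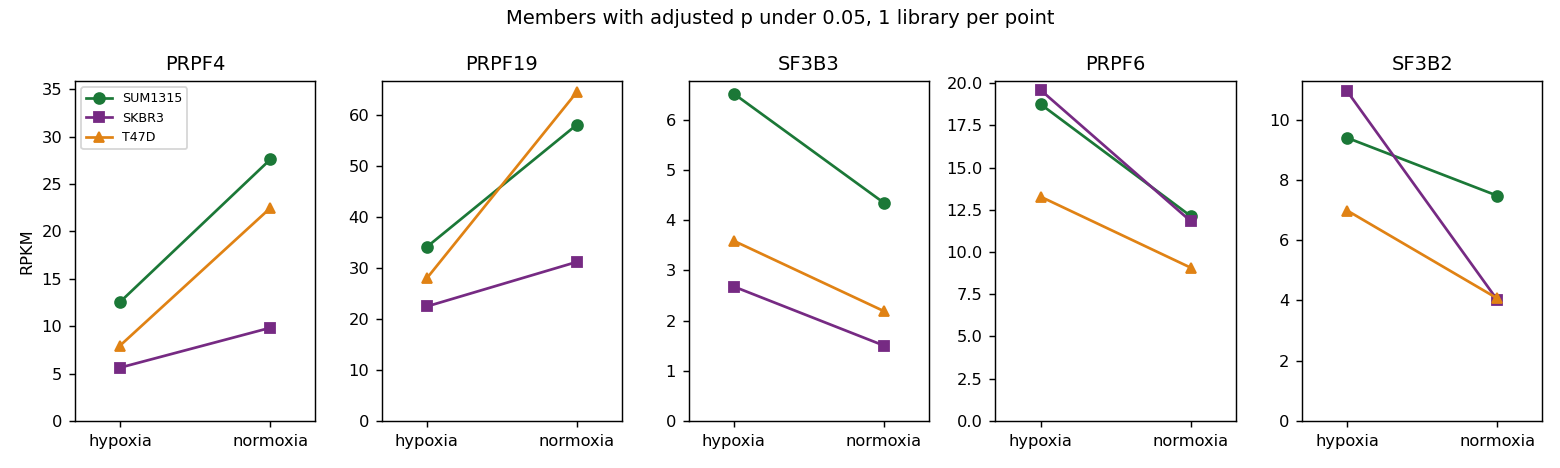
RPKM (y axis, from 0, a separate scale per gene) of the 5 members with adjusted p under 0.05 in hypoxic and normoxic cells (x axis), with 1 point per library and a line joining the 2 libraries of a cell line. PRPF4 and PRPF19 are lower and SF3B3, PRPF6 and SF3B2 higher at hypoxia in each line, and only for PRPF6 do the groups not overlap.

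Among the 11 U2 proteins 2 rose and none fell, where 4.12% of all genes tested were called higher and 2.26% lower. Both were large subunits of SF3b, the subcomplex that grips the branch point, and neither passed with the coding length correction (adjusted p = 0.062 each). SF3B2 stood at 9.39, 10.9 and 6.98 RPKM in hypoxic SUM1315, SKBR3 and T47D cells, against 7.47, 4.01 and 4.06 RPKM in normoxic ones. It was higher at hypoxia in every line, most in SKBR3, where the hypoxic value was 273% of the normoxic one, and the groups overlapped. Its log2 fold change was 0.73 ± 0.18 (SE, adjusted p = 0.042). The gene lies on chromosome 11 at 66050729 to 66069308 (plus strand). Without SKBR3 its log2 fold change was 0.48 (adjusted p = 0.10) and without T47D 0.77 (adjusted p = 0.10). It did not pass with each library's median set to 0 (adjusted p = 0.067) or with libraries rescaled to a common RPKM total (adjusted p = 0.052).

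SF3B3 stood at 6.53, 2.68 and 3.59 RPKM in hypoxic SUM1315, SKBR3 and T47D cells, against 4.35, 1.50 and 2.19 RPKM in normoxic ones. The hypoxic value was 150%, 178% and 164% of the normoxic one, while the lines differed enough in level for the groups to overlap. Its log2 fold change was 0.52 ± 0.12 (SE, adjusted p = 0.035). Leaving out SKBR3 gave an adjusted p of 0.065, and leaving out T47D gave 0.15. SF3B3 lies on chromosome 16 at 70523788 to 70577670 (plus strand).

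SF3B1, the largest SF3b protein and the one that contacts the branch point helix, had 0.26 ± 0.12 (SE, adjusted p = 0.22). SF3A1 and SF3A2, which join SF3a to U2, had 0.44 ± 0.15 and 0.49 ± 0.17 (SE, adjusted p = 0.10 each), and SF3A1 passed without SUM1315 (adjusted p = 0.042). Exons of SF3A1 overlap CCDC157 and those of SF3A2 overlap PLEKHJ1, which leaves their reads uncertain. SF3A3 was uneven: the log2 ratio was 0.62 in SKBR3, 0.07 in T47D and -0.23 in SUM1315. These U2 proteins did not pass, and neither did the smaller ones.

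SF3B4, an RNA-binding subunit of SF3b, had the lowest U2 estimate, at -0.31 ± 0.15 (SE, adjusted p = 0.22). It stood at 53.3, 29.4 and 36.6 RPKM in hypoxic SUM1315, SKBR3 and T47D cells, against 67.0, 40.8 and 40.6 RPKM in normoxic ones. SNRPB2 and SNRPA1, the pair that binds a stem of the U2 RNA, had -0.29 ± 0.15 and -0.15 ± 0.15 (SE, adjusted p = 0.24 and 0.57). The small SF3b subunits SF3B5 and SF3B6 had -0.10 ± 0.16 and 0.16 ± 0.17 (SE, adjusted p = 0.72 and 0.57). The median log2 fold change over U2 proteins was 0.16, and the median ratio was -0.23 for SUM1315, 0.37 for SKBR3 and 0.34 for T47D.

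Of 12 further genes that recruit or remodel U2, 1 rose (against 4.12% of all genes tested) and none fell (2.26%). Their median log2 fold change was -0.26. DDX46, an ATPase that acts on U2 before it engages the branch point, rose by 0.58 ± 0.12 (SE, adjusted p = 0.026). It stood at 8.07, 2.77 and 2.31 RPKM in hypoxic SUM1315, SKBR3 and T47D cells, against 4.94, 1.35 and 1.41 RPKM in normoxic ones. Leaving out SKBR3 gave an adjusted p of 0.059, leaving out T47D gave 0.083 and a pseudocount of 5 gave 0.060. U2AF2, which reads the polypyrimidine tract, had -0.53 ± 0.17 (SE, adjusted p = 0.084). The SF3b subunit PHF5A, counted above with the snRNP proteins outside the rule, had -0.60 ± 0.18 (SE, adjusted p = 0.069). All its hypoxic values lay below its normoxic ones, as in 1.80% of tested genes. U2AF2 and PHF5A were named after their values were seen.

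PRPF19 was the second member that fell. It is a ubiquitin ligase, and the complex named after it stabilises the activated spliceosome. It stood at 34.1, 22.5 and 28.0 RPKM in hypoxic SUM1315, SKBR3 and T47D cells, against 58.1, 31.2 and 64.6 RPKM in normoxic ones. T47D had the largest drop, to 43.4% of its normoxic value, and SKBR3 the smallest, to 72.0%. Its log2 fold change was -0.79 ± 0.17 (SE, adjusted p = 0.028), and without T47D it did not pass (adjusted p = 0.12). The gene lies on chromosome 11 at 60890730 to 60906588 (minus strand). In the order of mean levels of the 45 members PRPF19 was in place 21 at hypoxia and in place 11 at normoxia.

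The other PRPF proteins of this group did not pass. PRPF38A, a protein of the precatalytic complex, had -0.37 ± 0.14 (SE, adjusted p = 0.14) and was below 0 in every line, and its relative PRPF38B had -0.018 ± 0.14 (SE, adjusted p = 0.95). The kinase PRPF4B, which phosphorylates tri-snRNP proteins, had 0.11 ± 0.11 (SE, adjusted p = 0.56). It was near the expression filter, at 1.24, 1.21 and 1.56 RPKM in hypoxic SUM1315, SKBR3 and T47D cells and 1.09, 0.965 and 1.48 RPKM in normoxic ones.

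The partners of PRPF19 in its complex, and proteins related to them, were listed apart. Of 14 tested, 1 rose (against 4.12% of all genes tested) and none fell (2.26%). Their median log2 fold change was 0.12. The one that rose was XAB2, a scaffold protein of the activated spliceosome (0.68 ± 0.14, SE, adjusted p = 0.022). All its hypoxic values (3.23, 4.75 and 4.62 RPKM in SUM1315, SKBR3 and T47D) lay above all its normoxic values (2.17, 2.55 and 1.93 RPKM). That was true of 2.16% of the genes tested. Among 10 genes of the catalytic steps and release, 1 rose (against 4.12% of all genes tested) and none fell (2.26%). It was SLU7, a factor of the second step (0.64 ± 0.14, SE, adjusted p = 0.027), with 9.58, 10.3 and 10.3 RPKM in hypoxic and 6.56, 5.89 and 5.85 RPKM in normoxic cells of the same lines, again with no overlap. XAB2 did not pass without T47D (adjusted p = 0.13) or with quantile normalization (adjusted p = 0.054). SLU7 did not pass without SKBR3 (adjusted p = 0.053), without T47D (adjusted p = 0.12) or with a pseudocount of 5 (adjusted p = 0.054).

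Of the Sm proteins, which form the ring shared by most snRNPs, none of 8 passed in either direction with limma, and the lines differed in sign. Unadjusted p was under 0.05 for 1 of the 8 and for 2692 of all 10253 genes tested. In SUM1315 all 8 log2 ratios were below 0, between -0.61 and -0.17, with a median of -0.38, while 49.1% of all tested genes were below 0 there. SKBR3 and T47D each had 4 of 8 below 0, with medians of -0.021 and 0.049. SNRPD1 had the lowest estimate, -0.47 ± 0.17 (SE, adjusted p = 0.12). It stood at 32.4, 27.5 and 36.4 RPKM in hypoxic SUM1315, SKBR3 and T47D cells, against 49.9, 45.7 and 38.8 RPKM in normoxic ones. The hypoxic libraries all lay below the normoxic ones, as in 1.80% of tested genes, although T47D moved by little.

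SNRPN, a paralog of SNRPB from an imprinted locus, had the highest Sm estimate, 0.21 ± 0.17 (SE, adjusted p = 0.46). It stood at 34.9, 5.27 and 51.8 RPKM in hypoxic SUM1315, SKBR3 and T47D cells, against 39.4, 4.30 and 35.1 RPKM in normoxic ones. Its exons overlap SNURF and SNHG14, and its coding sequence resembles that of SNRPB, so its reads are uncertain. SNRPB, SNRPD3, SNRPE, SNRPF, SNRPD2 and SNRPG had log2 fold changes of -0.30, -0.29, -0.22, -0.12, -0.057 and 0.14, with adjusted p from 0.27 to 0.85. SNRPG had 29.7, 37.8 and 84.3 RPKM in hypoxic SUM1315, SKBR3 and T47D cells and 42.5, 29.3 and 56.1 RPKM in normoxic ones, so SUM1315 went the other way from the luminal lines.

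Proteins that load the Sm ring were also examined. Of 12 genes of the SMN and methylosome complexes, 1 fell (against 2.26% of all genes tested) and none rose (4.12%). Their median log2 fold change was -0.15. WDR77, the partner of the Sm arginine methyltransferase PRMT5, stood at 30.5, 17.2 and 17.5 RPKM in hypoxic SUM1315, SKBR3 and T47D cells. Its normoxic values, 59.9, 35.1 and 40.2 RPKM, all lay above the hypoxic ones, as in 1.80% of tested genes. Its log2 fold change was -1.03 ± 0.15 (SE, adjusted p = 0.0059), and it passed with each line left out (adjusted p 0.0024 to 0.018). SMN1 has a near-identical copy, SMN2, and its reads are uncertain.

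None of the 7 LSm proteins of the U6 ring passed with limma, and T47D stood apart in sign. Unadjusted p was under 0.05 for 1 of the 7 and for 2692 of all 10253 genes tested. In T47D all 7 log2 ratios were above 0, between 0.12 and 0.77, with a median of 0.55, where 53.2% of all tested genes were above 0. All 7 belong to the tested genes with the shortest coding sequences (687 bases or fewer), and the median ratio of those 1909 genes was -0.029 for SUM1315, -0.13 for SKBR3 and 0.16 for T47D. In SUM1315 6 of 7 were below 0 (median -0.14) and in SKBR3 4 of 7 (median -0.071). LSM4 was higher at hypoxia in all lines, with 102, 56.7 and 175 RPKM in hypoxic SUM1315, SKBR3 and T47D cells, against 70.8, 53.8 and 104 RPKM in normoxic ones. Its log2 fold change was 0.45 ± 0.17 (SE, adjusted p = 0.14).

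LSM2 had the lowest estimate of the ring, -0.22 ± 0.18 (SE, adjusted p = 0.44), with 96.9, 48.1 and 92.2 RPKM in hypoxic and 114, 73.5 and 82.1 RPKM in normoxic cells of the same lines. Only T47D was higher at hypoxia. LSM7, LSM6, LSM3, LSM5 and LSM8 had 0.26, 0.15, 0.11, -0.068 and -0.084, with adjusted p from 0.33 to 0.83. LSM8 keeps the ring on U6 in the nucleus, and LSM1 takes its place in the cytoplasmic ring that promotes mRNA decay. Exons of LSM3 overlap those of XPC, which leaves its reads uncertain.

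LSM1 had 22.2, 13.7 and 30.8 RPKM in hypoxic SUM1315, SKBR3 and T47D cells, against 25.8, 16.2 and 21.5 RPKM in normoxic ones, a log2 fold change of 0.019 ± 0.18 (SE, adjusted p = 0.96). Again only T47D was higher at hypoxia. Exons of LSM1 overlap those of BAG4, so the reads of LSM1 are uncertain. LSM10, a protein of the U7 snRNP that processes histone mRNA ends, had -0.40 ± 0.19 (SE, adjusted p = 0.22). It stood at 11.0, 5.40 and 6.60 RPKM in hypoxic SUM1315, SKBR3 and T47D cells, against 16.9, 10.2 and 5.64 RPKM in normoxic ones. Its U7 partner LSM11 had -0.042 ± 0.12 and LSM12, an LSm-domain protein outside these rings, -0.13 ± 0.19 (SE, adjusted p = 0.85 and 0.70).

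No U1 protein passed among the 4 tested with limma (1 had an unadjusted p under 0.05, as did 2692 of all 10253 genes tested). PRPF39, which is associated with U1, had the highest estimate, 0.31 ± 0.12 (SE, adjusted p = 0.12), with 2.55, 1.82 and 2.19 RPKM in hypoxic SUM1315, SKBR3 and T47D cells, against 1.93, 1.37 and 1.40 RPKM in normoxic ones. SNRPC, which stabilises pairing of U1 with the start of the intron, had the lowest, -0.26 ± 0.15 (SE, adjusted p = 0.29). It stood at 194, 113 and 288 RPKM in hypoxic SUM1315, SKBR3 and T47D cells, against 236, 144 and 323 RPKM in normoxic ones. Each was on 1 side of 0 in all lines. SNRPA, which binds a stem of the U1 RNA, had 0.12 ± 0.16 (SE, adjusted p = 0.67). Untested PRPF40B had 0.319, 0.425 and 1.47 RPKM in hypoxic SUM1315, SKBR3 and T47D cells and 0.271, 0.534 and 1.45 RPKM in normoxic ones. Exons of PRPF39 overlap FKBP3, which stood at 61.85 to 142 RPKM, so the reads of PRPF39 are uncertain.

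Levels differed far more between members than between oxygen levels. Mean RPKM ran from 0.738 (PRPF40B) to 357 (SNRPB) at hypoxia and from 0.750 to 447 for the same genes at normoxia. Sm mRNAs covered 26.3 (SNRPN, a paralog of SNRPB) to 447 (SNRPB) RPKM at normoxia, with SNRPG next above SNRPN at 42.6 RPKM. U2 mRNAs covered 2.24 (SF3B1) to 296 (SF3B5) RPKM, although both are subunits of SF3b. SNRPB, SF3B5, SNRPD2, SNRPC and SF3B6 held places 1 to 5 at both oxygen levels. Across the 45 members the level fell with coding length (Spearman rho -0.63 between coding length and mean normoxic RPKM), as it did over 9462 tested genes with a coding length (rho -0.50). These points share libraries and a per-length scale, and the lengths behind that scale were not given in the sources.

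**Figure D3:**
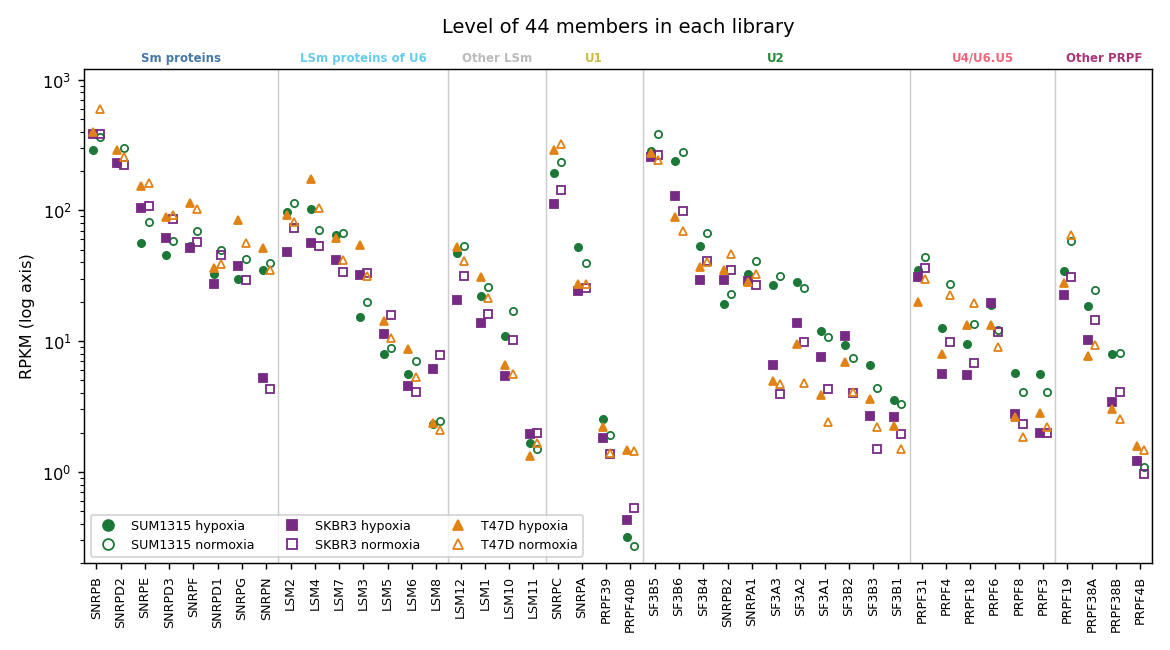
RPKM (log y axis) of 44 of the 45 members (x axis, by role and then by mean normoxic level) in each library, with filled symbols for hypoxia on the left and open symbols for normoxia on the right of each gene. Levels run from PRPF40B, under 1 RPKM in SUM1315 and SKBR3, to SNRPB at 289 to 594 RPKM, and SNRPN is low in both SKBR3 libraries.

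Lines also differed in level. Among the 44 tested members, SUM1315 had the highest mean of its 2 libraries in 24, T47D in 16 and SKBR3 in 4. For SNRPN the SKBR3 libraries averaged 4.78 RPKM, against 37.2 RPKM in SUM1315 and 43.5 RPKM in T47D. For SF3A3 the order was another, with 29.4 RPKM in SUM1315, 5.24 RPKM in SKBR3 and 4.84 RPKM in T47D, the last 2 of which overlapped. SNRPD1 differed least (41.2, 36.6 and 37.6 RPKM in SUM1315, SKBR3 and T47D). The range between lines on the log2 scale exceeded the size of the hypoxia fold change in 40 of the 44 members (90.9%) and in 95.2% of all tested genes. With 1 library per line and oxygen level these differences between lines were not tested.

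By rank correlation, longer members tended to have higher log2 fold changes, though not in T47D, which is given as a description. In the quintile of tested genes with the longest coding sequences (2238 bases or more), the 8 members had a median log2 fold change of 0.37, and all 1889 genes of that quintile had 0.10. In the shortest quintile (687 bases or fewer) the 20 members, most of them Sm and LSm proteins, had a median of -0.093 and all 1909 genes had 0.0038. The medians of all genes did not rise steadily with length. From the shortest to the longest quintile they were 0.0038, -0.13, -0.078, 0.0058 and 0.10. In T47D the median ratios were 0.16, -0.16, -0.13, 0.0086 and 0.12, so both end quintiles were above 0 there. The rho between coding length and log2 fold change was 0.34 over the 44 members and 0.16 over the 9462 genes. By line it was 0.54, 0.39 and -0.065 over the members in SUM1315, SKBR3 and T47D, and 0.15, 0.24 and 0.034 over all genes. With the trend on coding length removed within each line, a step chosen after the data were seen, PRPF4, PRPF19 and PRPF6 still passed (adjusted p = 0.0096, 0.029 and 0.048). SF3B2 and SF3B3 did not (adjusted p = 0.062 each), with log2 fold changes of 0.67 ± 0.18 and 0.42 ± 0.11 (SE) after the correction, against 0.73 and 0.52 before it. That left 1 member higher and 2 lower, with 4.34% of all genes called higher and 2.17% lower. The part of coding length in these results was not tested further.

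**Figure D4:**
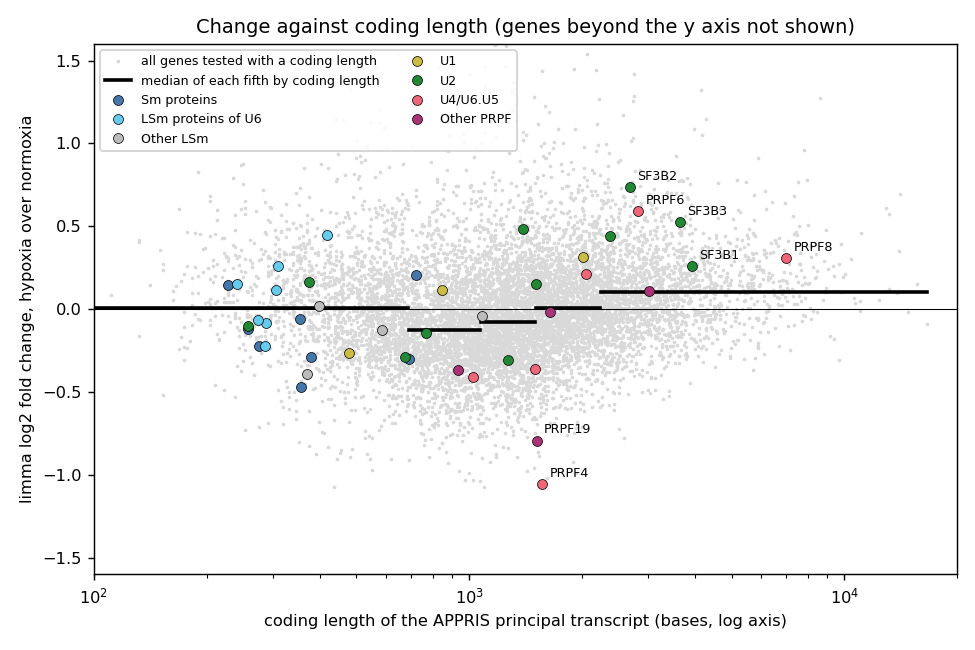
Limma log2 fold change of hypoxia over normoxia (y axis, with the most extreme genes outside it) against coding length in bases (log x axis) for 9462 tested genes in grey and 43 of the 44 tested members coloured by role, with black bars at the median of each quintile of genes by coding length. The called members SF3B2, PRPF6 and SF3B3 lie in the longest quintile, whose median is 0.10, while PRPF4 and PRPF19 lie in the next one, whose median is 0.0058.

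As a share of the summed RPKM of the table, the 45 members held 0.892%, 0.701% and 0.885% in hypoxic SUM1315, SKBR3 and T47D cells, against 1.06%, 0.731% and 0.929% in normoxic ones. The share was lower at hypoxia in each line, by little in SKBR3 and T47D. Such sums weigh the most abundant mRNAs most. In T47D the member sum was 2632 RPKM at hypoxia and 2657 RPKM at normoxia. SNRPB alone stood there at 399 RPKM at hypoxia and 594 RPKM at normoxia, while 30 of 44 tested members had a log2 ratio above 0. Summed RPKM of the U6 LSm proteins was 407 in hypoxic and 277 in normoxic T47D cells, but 295 and 290.4 in SUM1315 and 200.3 and 222 in SKBR3. Summed RPKM of the Sm proteins was 771, 901 and 1220 in hypoxic SUM1315, SKBR3 and T47D cells, against 1006, 935 and 1340 in normoxic ones. The T47D sums include SNRPB, and 4 of the 8 Sm log2 ratios were above 0 in that line.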

How the data were processed

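RNA was sequenced from polysome fractions of 3 cell lines at 2 oxygen levels, 1 library each. Tools named in the submitters' processing notes are HISAT2, Trimmomatic, Partek and SAMtools, without versions or order, and the build is GRCh38 (hg38). The deposited table gives no unit, and its values were taken as the authors' RPKM. In each library 63.0% to 65.9% of 2496 to 2706 single-transcript genes gave, after multiplication by transcript length, a whole multiple of 1 common step within 0.02 steps, against 4% by chance. The annotation used for counting was not stated.

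The fit kept the 10253 genes that reached 1 RPKM in 3 or more libraries. Hypoxic and normoxic libraries were compared on log2(RPKM + 1), a scale that understates changes of low genes, with limma 3.58.1 in R 4.3.3 (line as a block, mean-variance trend, two-sided, Benjamini-Hochberg adjusted p over all genes tested). The pairing comes from the labelled line: after subtraction of the group means, the correlation across genes within a line was 0.94 to 0.97. Residual degrees of freedom were 2 and prior ones 8.02, so an SE reflects genes of like level more than a gene's own 3 pairs. The fit was tested on simulated data with known changes. It called 99% of 100 genes with a log2 change of size 1 and 45% of 100 genes with size 0.5. A change near 0.5 that did not pass may therefore have been missed. The fit also called 16 unchanged genes, so some of the genes that passed may be unchanged.

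The values of 1 member are not reported here, though counts and medians include it. Members, roles and lists were chosen with earlier results of these data known. LSM14A and LSM14B carry a letter and fall outside the rule, and 6 pseudogenes were left out (0.0106% to 0.0416% of RPKM summed over them and the members). Named with all 6 values were members that passed, the highest and lowest of each role, and passing genes of the other lists, plus PRPF8, SNRPG, the untested PRPF40B and the neighbouring gene CDC26, added after their values were seen. Coding length is the longest coding sequence among APPRIS principal transcripts of GENCODE release 29. Alternatives were pseudocounts, filters, scalings, variance priors, no block, each line left out and a coding length correction.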

Additional observations from a re-analysis of the deposited data

Results flagged for a closer look

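SNRPG, an Sm ring protein, had a log2 ratio of hypoxia over normoxia of -0.50 in SUM1315, against 0.36 in SKBR3 and 0.58 in T47D. It was picked out because lines lay at least 0.5 from 0 on opposite sides. The difference between lines was not tested, since each line has 1 pair of libraries.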

How the results depend on the processing

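The direction of all tested members was kept under both other pseudocounts and all 3 scalings. The other filters, the variance priors and the fit without the block leave a fold change as it is by construction and bear on calls only. All genes called higher and lower numbered 422 and 232. They were 171 and 72 with a pseudocount of 5, and 0 and 0 without the filter (2715 at an unadjusted p under 0.05) or with no replicate block for line (68). Members called higher and lower, 3 and 2, were 0 and 1 with a pseudocount of 5, and 0 and 0 without the filter (13 at an unadjusted p under 0.05) or with no replicate block (0). Quantile normalization left 1 higher, as did the coding length correction, which was chosen after seeing the data. With each line left out, members called ranged from 0 to 3 higher and from 1 to 2 lower, and all genes from 179 to 552 higher and from 53 to 271 lower, with the lowest counts of all genes without T47D. No member was called higher without SKBR3 or without T47D, and 1 was called lower without T47D. The member median ranged from -0.14 to 0.046. The cause of these changes was not tested.

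None of the members that changed sign had passed. With a line left out, the log2 fold change ranged from -0.22 to 0.14 for LSM1, -0.11 to 0.035 for LSM11, -0.36 to 0.096 for LSM12, -0.22 to 0.35 for LSM3, -0.29 to 0.12 for LSM5, -0.080 to 0.38 for LSM6, -0.19 to 0.034 for LSM8, -0.12 to 0.076 for PRPF38B, -0.079 to 0.34 for SF3A3, -0.23 to 0.057 for SF3B5, -0.033 to 0.21 for SNRPA, -0.17 to 0.11 for SNRPD2 and -0.073 to 0.47 for SNRPG. The coding length correction gave 0.051 for LSM11 and 0.0057 for PRPF38B. No count test was run, as RPKM is not a count.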

Other observations

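Several members start within 1000 bases of a gene on the other strand. CDC26, a subunit of the anaphase-promoting complex that starts head to head with PRPF4, had a log2 fold change of -0.050 ± 0.18 (SE, adjusted p = 0.88), beside -1.06 for PRPF4. It stood at 15.5, 24.7 and 40.1 RPKM in hypoxic SUM1315, SKBR3 and T47D cells, against 23.4, 22.2 and 33.1 RPKM in normoxic ones. ORC1, a subunit of the origin recognition complex opposite PRPF38A, rose by 0.62 ± 0.12 (SE, adjusted p = 0.020), beside -0.37 for PRPF38A. C19orf54, opposite SNRPA, rose by 0.62 ± 0.14 (SE, adjusted p = 0.033), beside 0.12 for SNRPA. COG4, opposite SF3B3, had 0.34 ± 0.16 (SE, adjusted p = 0.20), beside 0.52 for SF3B3. These pairs were named after their values were seen, and differences within a pair were not tested.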
